A study of Rattus norvegicus with 16 samples.

Results

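The chemokine and chemoattractant receptors of blood leukocytes were followed in the whole blood transcriptome of rats given saline. The set held 9 genes, found by their symbols among the 18031 genes listed in all 16 count tables, and each symbol had 1 entry. 5 of them belong mainly to granulocytes and monocytes and are called myeloid here: Ccr1, Cxcr1, Cxcr2, Fpr1 and Csf3r. The other 4, Ccr6, Ccr9, Cxcr3 and Cxcr5, belong mainly to lymphocytes and are called lymphoid. Every library came from a male Sprague-Dawley rat, 85 to 90 days old, of the single group Saline Control. Each rat received 4 injections of normal saline (1 ml/kg), spaced by 2 h and without food or water meanwhile, and blood was drawn from the heart 3 h after the last one. With 1 group there was no treated arm to compare, so the question was how these receptors varied among control animals. The paper states that its experiment was repeated at several dates. The labels give no date for a rat, so spread between dates was not separated from spread between animals. The names of the deposited files carry 6 codes, whose meaning the labels do not give, and they are called runs A to F below (A with 3 libraries, B with 5, C with 2, D with 4, E and F with 1 each).

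Chemokine receptors and the formyl peptide receptor are G protein-coupled receptors that sense gradients of chemokines or of bacterial and mitochondrial peptides and steer leukocytes toward the source. Csf3r, the receptor for granulocyte colony-stimulating factor, is a cytokine receptor that signals through Jak2 and Stat3 and governs neutrophil production and release. In blood, Cxcr2, Fpr1 and Csf3r mark neutrophils above all, Ccr1 neutrophils and monocytes, Cxcr5 and Ccr6 B cells and some T cells, Cxcr3 activated T cells and NK cells, and Ccr9 T cells bound for the gut as well as thymocytes.

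Library totals ranged from 21466776 to 31189549 estimated counts, of which globin transcripts took 2.96 to 15.54%. Marker genes of neutrophils, monocytes, B cells, T cells and NK cells were all present in every library as summed lists. Several libraries stood apart by transcripts of other tissues. The 5 liver genes summed to 424700 normalized counts in control 2, 18950 in control 8, 4268 in control 7 and 2136 in control 5, beside a median of 40.63. In control 12 the 4 genes of early thymocytes summed to 5770 against at most 59.67 elsewhere. The 4 fat genes were highest in control 12 (4236) and control 2 (2440), beside a median of 63.98, and the 5 cardiac muscle genes in control 10 (435.9, against 77.86 in the next library). Control 8 had the highest summed neutrophil list, at 1115000 normalized counts against 665100 in the next library and a median of 191400. Several results that rest on control 2, 8 or 12 are given with and without them, but most relations of single genes with a receptor are given for all 16 libraries only. The part of liver transcripts in the values of control 8 was not tested.

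Levels are given as normalized counts, that is, counts divided by a size factor of the library, and were not corrected for transcript length, so no receptor is ranked above another. The 4 myeloid receptors that were detected throughout varied widely between rats, whereas the lymphoid receptors other than Ccr9 varied far less. Median coefficients of variation were 83.3% for Ccr1, Cxcr2, Fpr1 and Csf3r and 34.0% for the 4 lymphoid receptors, beside a median of 24.8% over 8672 genes with a mean of at least 100 normalized counts. In bulk blood, more cells of a type and more RNA per cell cannot be told apart.

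Csf3r, which binds the granulocyte growth factor, ranged from 5704 normalized counts in control 6 through a median of 16110 to 59599.5 in control 8 (mean 21740 ± 16500, SD, n = 16). Cxcr2, the receptor through which neutrophils follow Cxcl1 and Cxcl2, ranged from 1289 in control 2 through a median of 5454 to 14785 in control 8 (6489 ± 4500, SD, n = 16). The highest library exceeded the lowest 10.4-fold for Csf3r and 11.5-fold for Cxcr2. Ccr1, a receptor for Ccl3 and Ccl5, ranged from 1086 in control 2 through a median of 4614 to 22341 in control 8 (6262 ± 5680, SD, n = 16), a 20.6-fold range that was 12.2-fold without control 8. Fpr1, which senses formylated peptides, had the widest range of the set, 43.3-fold, from 51.0 normalized counts (57 reads) in control 2 through a median of 296.8 to 2208 in control 8 (663 ± 653, SD, n = 16). Without control 2 the range of Fpr1 was 19.5-fold. In these normalized counts control 8 was thus the highest library for all 4 detected myeloid receptors, and control 2 the lowest for all but Csf3r. The rank of control 8 depended on the scaling. Raw counts of Csf3r were 55639 in control 14 and 45963 in control 8, and those of Cxcr2 14090 in control 9 and 11402 in control 8. Library totals were 25098827, 22932706 and 27397461 in controls 14, 9 and 8. Raw counts of Ccr1 and Fpr1 were highest in control 8 (17229 and 1703). For each of these 4 receptors, at most 5.80% of the 8672 genes had a larger coefficient of variation.

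Cxcr1, the other interleukin-8 type receptor and the neighbour of Cxcr2 in mammalian genomes, was near absent. It received 11 reads in all 16 libraries together (0.0265 CPM, the count scaled to a common library total), with 6 of them in control 8, and 12 libraries were at 0. A count of 0 allows up to 3 reads, or 0.096 to 0.14 CPM depending on the library, so a low level was not detectable at this depth. Cxcr1 fell under the minimum of a mean of 10 normalized counts and was left out of all tests below, which therefore cover 8 receptors.

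Among the lymphoid receptors, Cxcr5, which guides B cells and follicular helper T cells into follicles, ranged from 63.5 normalized counts in control 8 through a median of 135.2 to 265.9 in control 6 (135.2 ± 47.3, SD, n = 16). Ccr6, the receptor for Ccl20, ranged from 53.7 in control 7 through a median of 185.3 to 286.9 in control 12 (175.9 ± 57.9, SD, n = 16). Cxcr3, the receptor for the interferon-induced chemokines Cxcl9, Cxcl10 and Cxcl11, ranged from 108.9 in control 8 through a median of 194.8 to 274.4 in control 1 (189.4 ± 51.4, SD, n = 16). Control 8, highest for the myeloid receptors in normalized counts, was the lowest library for both Cxcr5 and Cxcr3. Ccr9, the receptor for Ccl25 of gut and thymus, ranged from 122.1 in control 15 through a median of 171.1 to 730.4 in control 12 (213.9 ± 147, SD, n = 16). Most of the spread of Ccr9 came from control 12, since the next library was at 300.4 and the mean without control 12 was 179.5 ± 51.7 (SD). Raw counts of the lymphoid receptors were low and went down to 43 reads (Ccr6), 49 (Cxcr5), 84 (Cxcr3) and 97 (Ccr9) in their lowest libraries.

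**Figure D1:**
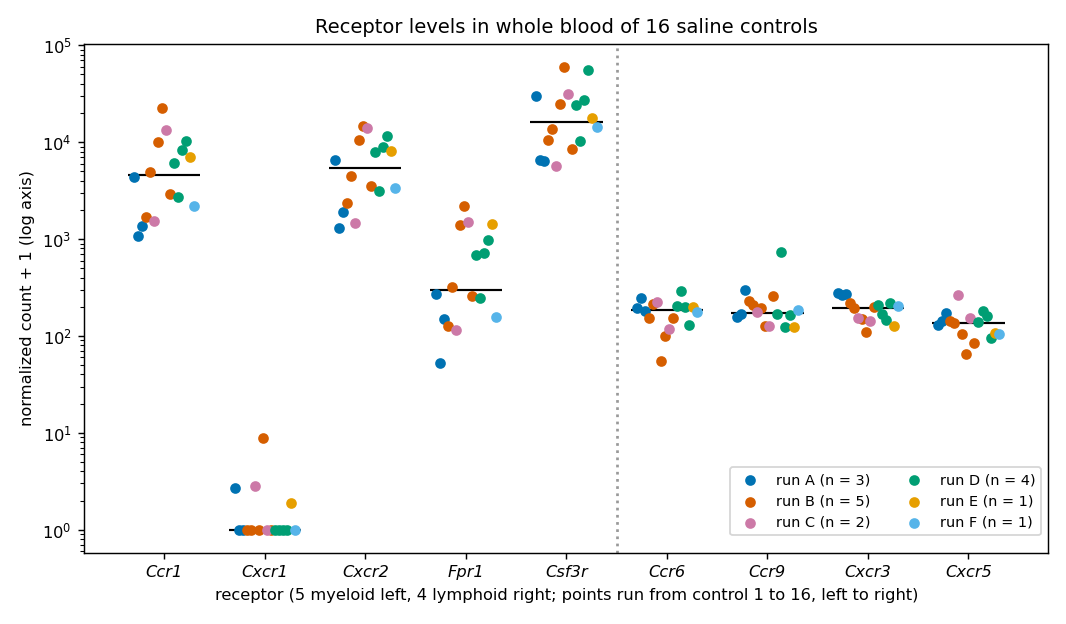
Normalized count plus 1 (log axis) of the 9 receptors in 16 saline control libraries, with 1 point per library coloured by run and a black line at the median. Ccr1, Cxcr2, Fpr1 and Csf3r spread over 10.4-fold to 43.3-fold, Cxcr1 lies at or near 0, and the lymphoid receptors are narrower apart from 1 library, control 12, at 730.4 for Ccr9.

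The balance between both classes was summarised for each library as the log2 ratio of the summed myeloid to the summed lymphoid receptors. These sums weight receptors by their counts. Csf3r made 51.7 to 73.1% of the myeloid sum (median 62.8%) and Fpr1 0.565 to 4.19%. In control 12, Ccr9 made 53.5% of the lymphoid sum, beside a median of 27.3%. The ratio averaged 5.29 ± 1.43 (SD, n = 16) on the log2 scale and does not depend on how libraries are scaled. It was lowest in control 3 (3.42), control 6 (3.43), control 2 (3.47) and control 12 (3.59), and highest in control 8 (7.96), control 14 (7.02) and control 9 (6.82). On the linear scale the ratio of the sums went from 10.7 to 249.4, a 23.3-fold range among rats of 1 group, possibly from several dates. Without control 8 the highest was 130.2, a 12.2-fold range. The myeloid sum made most of that range, with 8810 to 98941 normalized counts against 396.8 to 1365 for the lymphoid sum. Low and high libraries occurred within the same run, as the ratio ran from 3.42 to 5.78 in run A, 4.32 to 7.96 in run B, 3.43 to 6.82 in run C and 3.59 to 7.02 in run D.

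**Figure D2:**
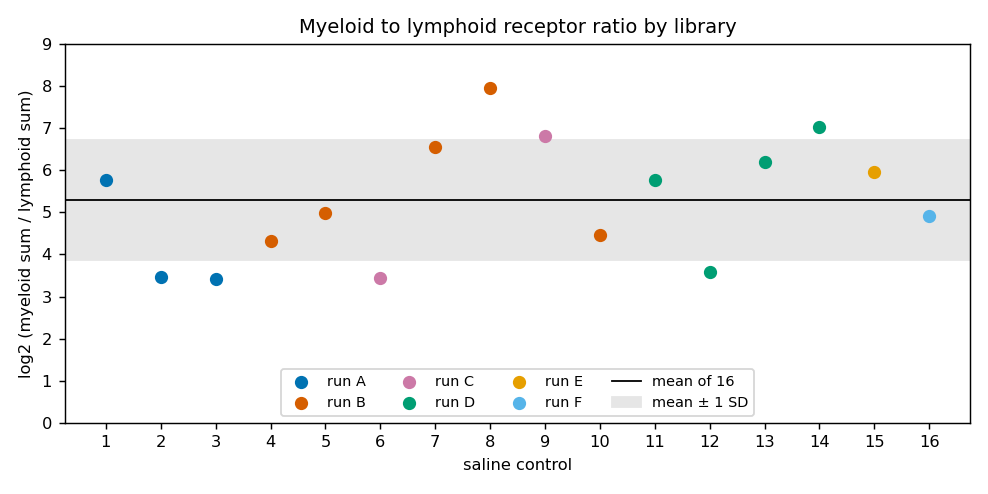
Log2 ratio of the summed normalized counts of 5 myeloid to 4 lymphoid receptors (y axis) in each saline control (x axis), coloured by run, with the mean (line) and 1 SD on either side (band). The ratio ran from 3.42 in control 3 to 7.96 in control 8, and runs A to D overlap.

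How the receptors moved together was tested over the 16 libraries on log2(normalized count + 1), with two-sided permutation p-values (100000 permutations) adjusted by Benjamini-Hochberg over all 125302 relations of 8 receptors and 2 library measures with 12531 genes. The 4 detected myeloid receptors rose and fell together, and all 6 of their pairs passed an adjusted p of 0.05. The strongest pair was Ccr1 with Cxcr2 (r = 0.977, rho = 0.991, permutation p = 1e-05, the smallest that the permutations can give, adjusted p = 0.00085). The weakest was Fpr1 with Csf3r (r = 0.833, rho = 0.844, permutation p = 0.00012, adjusted p = 0.0042), and r was 0.767 without the 2 libraries farthest from the median of Fpr1, controls 2 and 8. Against the background, 11.9% of all genes tested were called positive with Ccr1, 11.6% with Cxcr2, 11.4% with Fpr1 and 11.3% with Csf3r. After levels were centred within runs, the 6 myeloid pairs still had r from 0.894 to 0.980 and passed.

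Despite these high correlations the myeloid receptors did not keep a fixed proportion. The ratio of Fpr1 to Csf3r differed 10.5-fold between libraries, from 0.00772 in control 2 to 0.0811 in control 15. By contrast the ratio of Ccr1 to Cxcr2 stayed within 2.30-fold, from 0.657 in control 16 to 1.51 in control 8. That of Cxcr2 to Csf3r stayed within 2.37-fold.

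The lymphoid receptors did not move as a block. None of their 6 pairs passed the adjusted threshold, 1 had an unadjusted permutation p under 0.05, and r ranged from 0.205 to 0.537. The highest was Ccr6 with Cxcr5 (r = 0.537, rho = 0.591, permutation p = 0.036, adjusted p = 0.17), both receptors of B cells. The lowest was Cxcr3 with Cxcr5 (r = 0.205, rho = 0.100, permutation p = 0.45, adjusted p = 0.71), and its r was -0.093 without control 8. Background shares called positive were 2.67% for Ccr6, 2.32% for Ccr9, 1.52% for Cxcr3 and 2.51% for Cxcr5. These relations depended on the scaling, since 3 of 6 lymphoid pairs passed, with r from 0.556 to 0.766 over the 6, when libraries were scaled by total count. Under that scaling the background rose as well, to 34.4% of all genes called positive with Ccr6, 29.8% with Cxcr3 and 42.8% with Cxcr5.

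Between the classes, r was below 0 in all 16 pairs of a myeloid with a lymphoid receptor, from -0.384 for Csf3r with Cxcr3 to -0.691 for Fpr1 with Cxcr3. 14 of the 16 had an unadjusted permutation p under 0.05, but 1 passed the adjusted threshold, Fpr1 with Cxcr3 (rho = -0.659, permutation p = 0.0036, adjusted p = 0.045). Background shares called negative were 6.27% of all genes for Fpr1, 0.742% for Ccr6, 1.52% for Ccr9, 1.08% for Cxcr3 and 0.806% for Cxcr5. That call was lost in 9 of the 11 alternatives tried, among them centring within runs (r = -0.550, adjusted p = 0.27), leaving out control 2 (r = -0.639, adjusted p = 0.099) or control 8 (r = -0.616, adjusted p = 0.16), and scaling by total count (r = -0.444, adjusted p = 0.27). Without controls 2 and 8 together r was -0.540 (permutation p = 0.048, unadjusted). With total count scaling the median r of the 16 pairs moved from -0.541 to -0.302 and none had an unadjusted permutation p under 0.05, although all 16 values of r kept their sign. Centring within runs moved that median to -0.667, and 1 other pair, Ccr1 with Ccr9, then passed. No receptor was related to the globin share or to the total count of the library, where r lay between -0.271 and 0.263 and adjusted permutation p-values were at least 0.59. Over all genes, 0.0559% were called positive and 0.0399% negative with the globin share, and 0.527% and 0.0878% with the total count.

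**Figure D3:**
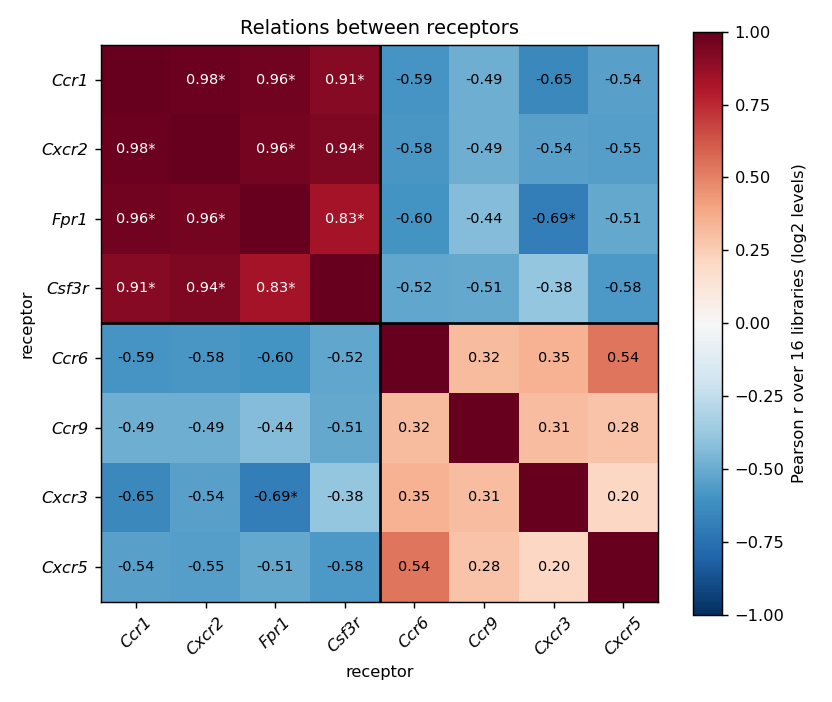
Pearson r over 16 libraries between the log2 levels of 8 receptors, with the 4 myeloid first, where an asterisk marks an adjusted permutation p under 0.05. The myeloid block holds r from 0.833 to 0.977, the lymphoid block 0.205 to 0.537 without a call, and the mixed block -0.691 to -0.384 with 1 call.

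**Figure D4:**
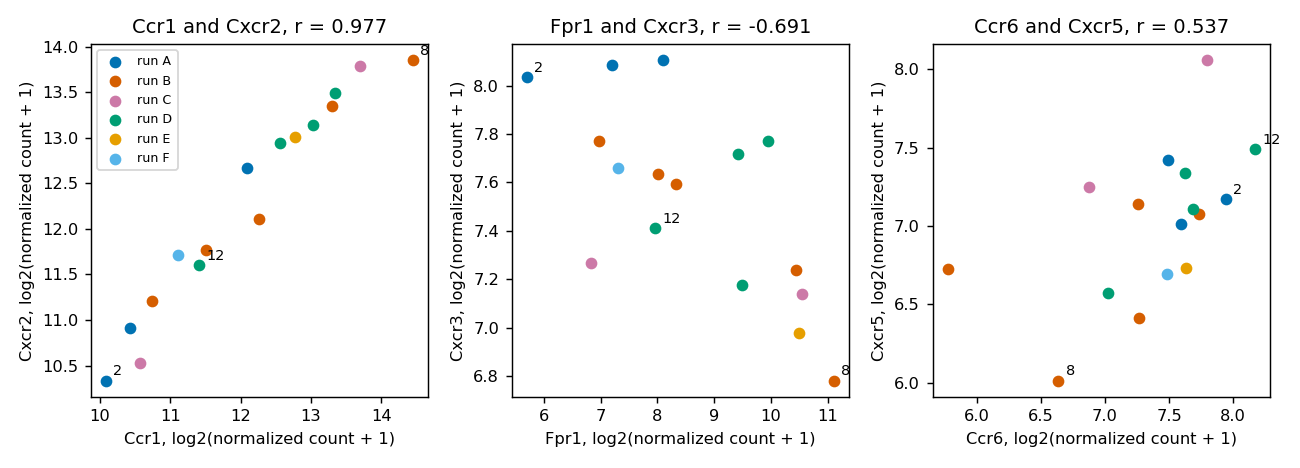
Log2(normalized count + 1) of 3 receptor pairs, with 1 point per library coloured by run and controls 2, 8 and 12 numbered. Ccr1 and Cxcr2 lie along a line (r = 0.977), Fpr1 and Cxcr3 fall with run A at the top and control 8 at the bottom (r = -0.691), and Ccr6 and Cxcr5 scatter (r = 0.537).

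The promoters of the 4 myeloid receptors that moved together are shown because PU.1, a transcription factor of myeloid and B cells, acts at many genes of these lineages. They are RefSeq windows of 300 bases on build GRCr8, 250 before and 50 after the annotated start, 5′ to 3′ on the gene's strand. Capitals mark exact matches to the PU.1 core GAGGAA on either strand. For Fpr1 the 50 bases after the annotated start open with ATG. That start may therefore be the start of the coding sequence, and whether the Fpr1 window is a promoter was not tested. Ccr1 is at chr8:132439217-132439516 (minus strand), Cxcr2 at chr9:83178395-83178694 (plus), Fpr1 at chr1:67422471-67422770 (minus) and Csf3r at chr5:143582970-143583269 (plus).
Ccr1: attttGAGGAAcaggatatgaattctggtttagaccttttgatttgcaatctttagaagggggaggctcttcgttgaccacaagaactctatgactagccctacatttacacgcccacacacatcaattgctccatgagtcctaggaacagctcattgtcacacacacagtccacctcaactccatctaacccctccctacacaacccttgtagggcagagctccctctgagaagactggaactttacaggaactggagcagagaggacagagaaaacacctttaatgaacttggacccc
Cxcr2: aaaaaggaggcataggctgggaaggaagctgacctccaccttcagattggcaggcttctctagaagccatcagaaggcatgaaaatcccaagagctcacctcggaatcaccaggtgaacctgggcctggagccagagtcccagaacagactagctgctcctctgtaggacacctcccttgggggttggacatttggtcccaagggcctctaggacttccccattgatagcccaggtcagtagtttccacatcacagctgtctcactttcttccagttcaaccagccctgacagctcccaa
Fpr1: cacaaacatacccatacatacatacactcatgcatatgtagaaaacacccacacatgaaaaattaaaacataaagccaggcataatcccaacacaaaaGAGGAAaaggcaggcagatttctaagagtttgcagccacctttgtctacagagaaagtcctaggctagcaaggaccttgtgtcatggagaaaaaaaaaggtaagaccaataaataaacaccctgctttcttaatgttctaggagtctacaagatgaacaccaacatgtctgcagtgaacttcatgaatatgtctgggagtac
Csf3r: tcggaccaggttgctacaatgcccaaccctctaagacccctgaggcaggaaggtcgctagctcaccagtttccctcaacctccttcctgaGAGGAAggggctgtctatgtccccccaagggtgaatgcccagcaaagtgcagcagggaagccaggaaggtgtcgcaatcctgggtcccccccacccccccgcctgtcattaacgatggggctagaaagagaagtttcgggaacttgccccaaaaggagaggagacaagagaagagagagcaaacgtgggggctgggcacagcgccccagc
Of 9 receptors 7 had an entry, and Ccr9 and Cxcr5 are named only. GAGGAA occurred in 3 of 5 myeloid windows (Ccr1, Fpr1 and Csf3r, but not Cxcr2 or Cxcr1) and in Ccr6, 1 of 2 lymphoid windows, beside 27.6% of 33469 rat promoters. The E-box CAGCTG occurred in the windows of both interleukin-8 type receptors, Cxcr1 and Cxcr2 (15.1% of all promoters), and the Runx motif TGTGGT in Ccr1 and Ccr6 (17.3%). The letters of the C/EBP motif TTGCNNAA, the AP-1 motif TGANTCA and the TATA box TATAAA were in none of the 7 windows (10.6%, 7.33% and 14.2% of all promoters). CAGCTG and TGANTCA read the same on both strands, no motif overlapped another in these windows, and a match describes letters, not a bound site.

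Markers of blood cell types were tested against each receptor in the same way. Neutrophil genes moved with the myeloid receptors, as 9 of 11 tested were called positive with each of Ccr1, Cxcr2, Fpr1 and Csf3r. Over all genes, 11.9% were called positive with Ccr1, 11.6% with Cxcr2, 11.4% with Fpr1 and 11.3% with Csf3r. Examples with Csf3r were the granule protease Elane (r = 0.899), the alarmin genes S100a9 (0.882) and S100a8 (0.881) and the integrin Itgam (0.854), with adjusted permutation p-values of at most 0.0026. Ngp (r = 0.395) and G0s2 (r = 0.555) did not pass with Csf3r. Of the monocyte genes, 2 of 9 passed with Ccr1, Cxcr2 and Fpr1 and 1 of 9 with Csf3r. These counts were near the shares over all genes and are not read as a result about monocytes. With Csf3r, Cd14 (r = 0.756) passed and Csf1r, the defining monocyte growth factor receptor, was at r = -0.177. The counts for neutrophil genes stayed between 7 and 10 of 11 under every alternative.

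Each lymphoid receptor was called with some genes of 1 lymphocyte list. With Cxcr5, 7 of 9 B cell genes were called positive, among them the kinase Blk (r = 0.839), the IgE receptor Fcer2 (0.822) and the transcription factor EBF1 (0.791). With Ccr6 4 of 9 passed, led by Pax5 (r = 0.864), and with Ccr9 and Cxcr3 none did. The T cell list gave 6 of 12 with Ccr9, including the receptor chains Cd3d (r = 0.884), Cd247 (0.799) and Cd3e (0.732), and 4 of 12 with Cxcr3, including Cd3e (0.689), but 0 of 12 with Cxcr5 or Ccr6. Over all genes, 2.51% were called positive with Cxcr5, 2.67% with Ccr6, 2.32% with Ccr9 and 1.52% with Cxcr3. Whether the list counts differ between receptors was not tested. No NK cell gene of 8 was called with any receptor, Cxcr3 included (median r = 0.214).

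These lymphoid counts changed with the libraries and the scaling. Without control 8, B cell calls with Cxcr5 went from 7 to 4 of 9 and T cell calls with Cxcr3 from 4 to 0 of 12, while the share of all genes called positive fell to 0.503% for Cxcr5 and 0.104% for Cxcr3. Centred within runs, they were 0 of 9 and 0 of 12, those of B cell genes with Ccr6 were 1 of 9, and those of T cell genes with Ccr9 were 8 of 12, beside background shares of 0.399% for Cxcr5, 0.287% for Cxcr3, 0.575% for Ccr6 and 2.58% for Ccr9. Scaled by total count, T cell calls were 9, 10, 12 and 11 of 12 with Ccr6, Ccr9, Cxcr3 and Cxcr5, beside backgrounds of 34.4%, 16.2%, 29.8% and 42.8% of all genes.

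B cell genes were called negative with each myeloid receptor in 4 of 9 cases. Background shares were 7.61% for Ccr1, 5.56% for Cxcr2, 6.27% for Fpr1 and 5.18% for Csf3r. With Csf3r they included Fcer2 (r = -0.771), Cr2 (-0.730) and Cd79b (-0.721). T cell genes were called negative in 5 of 12 cases with Ccr1, 2 with Fpr1, 1 with Cxcr2 and 0 with Csf3r. The T cell counts with Cxcr2 and Csf3r were near or under the background shares and are not read as a result about T cells. Without control 8, B cell genes gave 0 negative calls with Ccr1 and Csf3r and 1 each with Cxcr2 and Fpr1, and T cell genes gave none. The share of all genes called negative fell likewise, to 1.98% for Ccr1, 1.88% for Cxcr2 and Fpr1 and 1.21% for Csf3r. Scaled by total count, no B or T cell gene was called negative with any myeloid receptor, and over all genes 0.343 to 0.526% were.

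**Figure D5:**
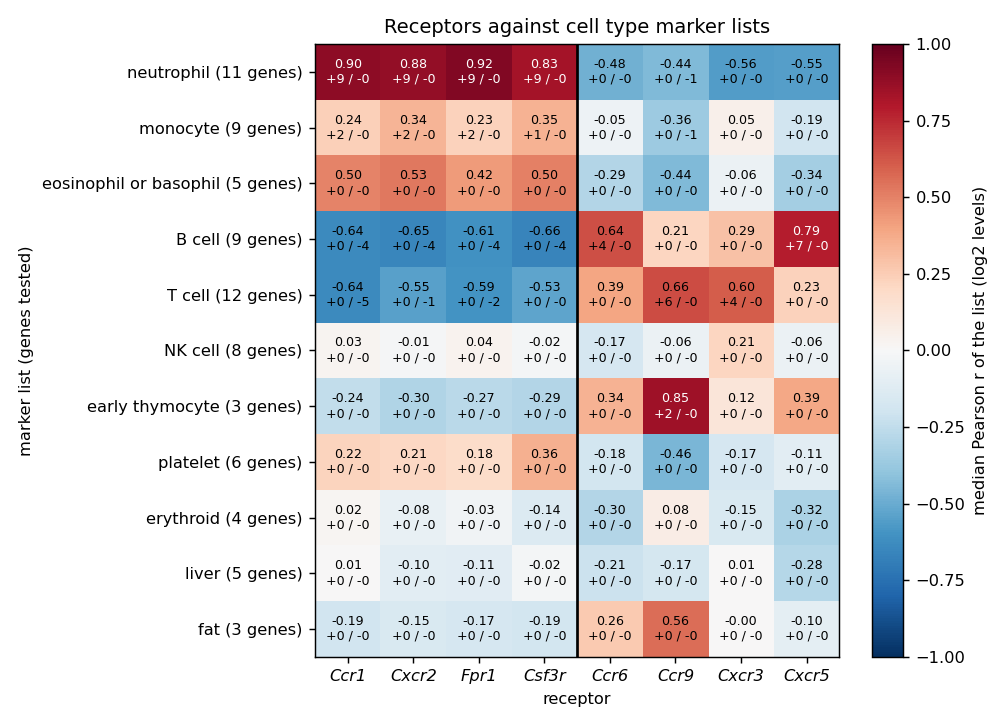
Median Pearson r over 16 libraries of marker lists (rows, with the number of genes tested) with 8 receptors (columns), and beneath it the genes called positive (+) and negative (-) at an adjusted permutation p under 0.05. Neutrophil genes have 9 calls with each myeloid receptor, B cell genes 7 with Cxcr5 and 4 with Ccr6, and T cell genes 6 with Ccr9 and 4 with Cxcr3.

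Ccr9 also moved with the recombination genes of early thymocytes, Rag1 (r = 0.855, rho = 0.609, adjusted permutation p = 0.02) and Dntt (r = 0.851, rho = 0.650, adjusted permutation p = 0.022), while Rag2 did not pass (r = 0.807, adjusted permutation p = 0.063). Rag1 was at 4189 normalized counts in control 12 beside a median of 11.51, and all 4 thymocyte genes were highest in that library. Without control 12, 1 of these genes remained above the count minimum, at r = 0.499 with Ccr9 and not called, whereas T cell calls with Ccr9 were again 6 of 12. Without control 8 none of the 3 was called. The part that thymus transcripts in control 12 play in the Ccr9 level was not tested.

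Eosinophil or basophil, platelet, erythroid, liver, fat and cardiac muscle lists gave no call with any of the 8 receptors. Their median r with the 4 myeloid receptors reached from -0.397 (cardiac muscle, 2 genes tested) to 0.527 (eosinophil or basophil, 5 genes tested). With Ccr9 the fat genes had r = 0.777 for Adipoq (adjusted permutation p = 0.056), 0.562 for Lpl and 0.493 for Car3. Their rho was 0.365, -0.05 and 0.294. The fat list, like that of early thymocytes, was highest in control 12.

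Other receptors, ligands and signalling genes of the same pathways were taken as whole lists. Over the 4 lists 21 of 56 genes tested were called positive with Csf3r and 1 negative. Of all genes tested, 11.3% were called positive and 5.18% negative with Csf3r, so the 1 negative call did not exceed the background. Other chemoattractant and growth factor receptors gave 6 of 14 positive calls. They included both chains of the receptor for granulocyte-macrophage colony-stimulating factor, Csf2ra (r = 0.969) and Csf2rb (0.946), the platelet-activating factor receptor Ptafr (0.949) and the complement receptor C5ar1 (0.919), each with an adjusted permutation p of 0.00085. Gpr183, the oxysterol receptor that positions B cells, went the other way (r = -0.870, adjusted permutation p = 0.00085). Of 11 other chemokine receptors none was called with Csf3r, and with Cxcr5 the atypical receptor Ccrl2 was called negative (r = -0.730, rho = -0.753, adjusted permutation p = 0.024). Control 8 was the highest library for Ccrl2 (674.3 normalized counts) and the lowest for Cxcr5, and r without it is not given. Over all genes, 0.806% were called negative with Cxcr5.

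Among the ligands 4 of 11 were called positive with Csf3r, beside 11.3% of all genes. These were Anxa1, an agonist of formyl peptide receptors (r = 0.916), the neutrophil attractants Cxcl2 (0.781) and Cxcl1 (0.743), and Cxcl10 (0.735), with adjusted permutation p-values of at most 0.027. Relations of Cxcl1 and Cxcl2 rest on few reads, as their medians were 3.337 and 9.189 normalized counts and their lowest libraries at 0. Control 8 was highest for both, at 115.4 and 252.9. By rank, rho with Csf3r was 0.719 for Cxcl1 and 0.783 for Cxcl2, and r without control 8 is not given. Set beside its own receptor, Anxa1 had r = 0.942 with Fpr1 (adjusted permutation p = 0.00085) and Cxcl2 r = 0.719 with Cxcr2 (0.029), while Cxcl1 with Cxcr2 missed the threshold (r = 0.619, adjusted permutation p = 0.093). The remaining ligand and receptor pairs did not pass. Cxcl10 had r = -0.515 with its receptor Cxcr3 (adjusted permutation p = 0.19), the platelet chemokine Ppbp r = 0.201 with Cxcr2 (0.73), and Ccl3 and Ccl5 r = 0.237 and -0.052 with Ccr1 (0.65 and 0.94).

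Signalling genes downstream of these receptors gave 11 of 20 positive calls with Csf3r, 10 with Cxcr2 and Fpr1 and 9 with Ccr1. Background shares were 11.3%, 11.6%, 11.4% and 11.9% of all genes for Csf3r, Cxcr2, Fpr1 and Ccr1. The largest with Csf3r were the G protein regulator Rgs19 (r = 0.956), the cytokine signal inhibitor Socs3 (0.936), Stat3 (0.932) and the G protein subunit Gnb2 (0.927), and Jak2 had r = 0.873. The same list gave no positive call with any lymphoid receptor, beside background shares of 1.52 to 2.67%. The GTPase Rac2 of blood cells was called negative with Cxcr5 (r = -0.717, adjusted permutation p = 0.032). Its rank relation was weaker (rho = -0.465, unadjusted permutation p = 0.071). The neutrophil marker list moved with the same receptors, and its part in these relations was not tested.

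The genes whose pattern was most like that of each receptor were ranked by r among 8366 genes with a symbol and a mean of at least 100 normalized counts. For the myeloid receptors they reached r of 0.971 to 0.991. Cxcr2 was closest to Ppp1r3d (0.991), Msl1, Flot2, Agpat9 and Socs3, and Ccr1 to Snx18 (0.985), Tpd52, Ppp1r3d, Steap4 and Ifit1lb. Fpr1 was closest to Mmp8 (0.989), the neutrophil collagenase, then Dhrs9, Bmx, Retnlg and Slc2a3, and Csf3r to Slfn1 (0.980), Cyth4, Ets2, Nfam1 and Tmco4. For the lymphoid receptors the closest genes had r of 0.789 to 0.901. Cxcr5 was closest to Hvcn1 (0.893), Ciita, Vav2, Ermp1 and Zfp608, and Ccr6 to Yipf2 (0.901), RT1-DOa, Pax5, Chka and Tp53i11. Cxcr3 was closest to Trim65 (0.843), Zfyve19, Gtpbp5, Gimap1 and RGD1311345. Ccr9 was closest to Arpp21 (0.895), Cd3d (0.884), Myb (0.878), Ngfrap1 and TCRB, and without control 12 its r was 0.802 with Arpp21, 0.862 with Cd3d and 0.650 with Myb. Each of these genes was picked for its r over the same 16 libraries, which share depth and cell makeup, so the values describe likeness only.

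Runs A, B and D, with at least 3 libraries each, were compared with the edgeR quasi-likelihood test. No receptor passed in any of the 3 comparisons, and over all 12952 genes tested the calls were 0% between A and B, 0% between A and D and 2.30% between B and D. Of A against B, 13.5% of genes had an unadjusted p under 0.05, DESeq2 called 566 genes and limma-voom 7, and of A against D the unadjusted share was 5.41% and DESeq2 called 14 genes. Fpr1 averaged 156.5 ± 111 normalized counts in run A and 859 ± 907 in run B (SD, n = 3 and 5), a log2 fold change of 2.42 ± 0.94 (SE) with an edgeR adjusted p of 0.28. Ccr1 averaged 2270 ± 1810 in run A and 8382 ± 8430 in run B, a log2 fold change of 1.85 ± 0.83 (SE) with an edgeR adjusted p of 0.36. Both comparisons overlapped between the runs and did not pass. Cxcr3 was the 1 receptor whose run stood clear, since the 3 libraries of run A held 261.3, 270.2 and 274.4 normalized counts and every other library 217.6 or fewer. It was lower in run B than in run A (log2 fold change -0.65 ± 0.23, SE, edgeR adjusted p = 0.23) and in run D (-0.54 ± 0.24, SE, adjusted p = 0.89), neither of which passed. Because a run held 3 to 5 rats, and simulated 4-fold changes were called in 60.4 to 69.8% of cases, differences between runs of this size could be missed.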

How the data were processed

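Whole blood RNA of 16 saline controls was measured by RNA-seq. Per the labels and the study's methods, the authors depleted globin mRNA, prepared stranded poly(A) libraries, sequenced 51-base paired ends, and, per the submitters' processing notes, used CASAVA 1.8.2, Bowtie 0.12.9 and RSEM 1.2.0 with build rn5. The values the authors deposited are estimated counts per gene, made by RSEM from reads aligned to transcripts. Fractional values made up 19.3 to 27.1% of each library and were rounded to integers; no outlier was replaced. RSEM shares reads between similar genes, so counts of paralogs are uncertain.

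Counts were divided by DESeq2 1.42.0 size factors. Relations used log2(normalized count + 1) and genes with a mean of at least 10. Runs were compared with edgeR 4.0.16 (TMM, 12 libraries in 1 fit). DESeq2, limma 3.58.1, other scalings, filters and left-out libraries were alternatives. The edgeR test and the permutation test were tested on simulated data. Of 200 simulated related genes all had an unadjusted permutation p under 0.05, and of 2000 unrelated genes 5.4%. The simulated relations were strong (median r = 0.942), so how often weaker relations are missed was not tested. Floors cover counting error only, whereas SDs were taken over libraries and SEs come from the edgeR test. The closest pair of libraries, controls 11 and 13, differed by 48.0 times the sampling noise, so none was counted as a duplicate.

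The receptors and lists were chosen with earlier results of these data known. Named genes were the receptors, the 5 genes of largest r per receptor, and up to 4 genes a list and direction by r with Csf3r or Cxcr5. Ngp, G0s2, Csf1r, Cd14, Jak2, the T cell genes and pairs of a ligand with its receptor were chosen after their values were seen. Results for some genes of these lists are not reported here.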

Additional observations from a re-analysis of the deposited data

How the results depend on the processing

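The 6 calls between myeloid receptors held under every alternative. The median coefficient of variation was 72.3 to 86.4% for the myeloid and 29.7 to 45.5% for the lymphoid receptors, the mean log2 ratio 5.11 to 5.41 and the calls of pathway genes with Csf3r 15 to 21. Single receptors moved more, as the coefficient of variation of Ccr9 went from 68.5 to 28.8% without control 12, and with total count scaling the range of Ccr6 went from 5.34-fold to 8.89-fold and that of Cxcr3 from 2.52-fold to 4.40-fold. Calls between lymphoid receptors went from 0 to 3 with scaling by total count and 3 when globin genes were also left out. The 1 call between the classes went to 0 with Spearman's rho, TMM scaling, both total count scalings, no filter, without control 2, without control 8, and without controls 6, 9, 15 and 16. The r of Cxcr3 with Cxcr5 was -0.093 without control 8. The share of genes called between runs A and B (0%) became 4.37% with DESeq2 and 0.054% with limma-voom, and 0 to 3.93% with 1 library left out (highest without control 4, and above 0 also without control 1 or 2). Between runs A and D (0%) it became 0.108% with DESeq2 and 0 to 0.015% with 1 library left out (above 0 without control 1, 2 or 7). Between runs B and D (2.30%) it became 0.0463% with total count scaling, 5.73% with DESeq2, 1.36% with only both runs fitted, and 0.0155 to 5.44% with 1 library left out (5.44% without control 4, 0.737% or less without control 5, 7 or 10 to 14). The causes were not tested. No paired analysis was possible because all libraries form 1 group. Depth limits Cxcr1 most, with 11 reads in all.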

Other observations

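2 receptors outside the set were picked out after their values were seen. Cxcr6, a receptor of T cells, was called positive with Cxcr3 (r = 0.686, adjusted permutation p = 0.042). Fpr2l, a formyl peptide receptor relative of Fpr1, was called positive with Fpr1 (r = 0.750, adjusted permutation p = 0.017) and negative with Cxcr3 (r = -0.737, adjusted permutation p = 0.021).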
